A study of Mus musculus with 6 samples.

Results

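Collagens are the main structural proteins of the extracellular matrix. The mouse collagen genes were taken as the protein-coding rows of the expression table whose symbol has the form Col, number, a, number. This rule found 44 genes among 55703 rows, of which 21926 were protein-coding. They comprised 11 fibrillar genes, 6 basement membrane genes (type IV) and 27 genes of other classes. The classes were assigned by gene name and were not derived from the measurements.

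The interscapular depot of brown adipose tissue (iBAT), a fat that burns fuel to make heat, was taken from C57BL/6 mice at 8 weeks of age, and total RNA was sequenced in 6 libraries. The control group carried WTAPflox/flox, in which loxP sites flank an exon of Wtap, the gene of a regulatory subunit of the RNA m6A methyltransferase complex. The other group, called Wtap-BKO, carried WTAPflox/flox together with UCP1-iCre+/-. The labels put 3 libraries in each group. The study describes its replicates as biologically independent mice. All 6 libraries therefore came from mice with the floxed allele, while the Cre allele was present in the Wtap-BKO group alone. Cre was expressed from the Ucp1 gene, through an IRES-Cre placed ahead of its 3′ UTR, so that deletion was directed to brown adipocytes and the Ucp1 allele itself was altered. Fibroblasts, endothelial cells, macrophages and other cells of the depot do not express Ucp1. In whole tissue, fewer cells of a type and less RNA per cell cannot be told apart, and the same holds for more cells and more RNA.

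A collagen molecule is a triple helix of 3 chains, called alpha chains. Fibrillar collagens assemble into the banded fibrils of connective tissue, with types I and III the bulk of the fibril in most soft tissues and type V a minor component that starts fibril assembly. Type IV collagen forms the sheet-like network of basement membranes, which surround each adipocyte and underlie the endothelium. Type VI forms beaded filaments around adipocytes, multiplexins (types XV and XVIII) are basement membrane proteoglycans, and FACIT collagens bind to the surface of fibrils. Fibroblasts are the main source of fibrillar collagen in most tissues, and adipocytes also make several collagens.

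Values are in FPKM, a unit that corrects fragments for the length of the gene and the depth of the library, so that levels can be compared between genes. Here the depth term was the authors' scaling between libraries, a median of gene ratios, and not the total of recovered reads. Reads recovered from the deposited values numbered between 15979694 and 19005123, a similar depth in all libraries. Replicates agreed less well in the BKO group, where pairs of libraries differed by a chi-square of 55.8 to 119 per degree of freedom over genes, against 22.9 to 36.9 in the flox/flox group. Wtap itself, summed over all of its exons, was at 8.00, 8.63 and 8.16 FPKM in the libraries labelled Wtap flox/flox 1, 2 and 3 and at 11.8, 12.3 and 12.7 FPKM in those labelled Wtap-BKO 1, 2 and 3. The Wtap level was thus higher in the libraries labelled as deleted, with a log2 change of 0.56 ± 0.09 (SE) and an adjusted p of 0.0160 by limma. A value summed over the gene includes exons outside the floxed part and RNA of cells without Cre, so it does not check the labels, and groups below are the libraries as labelled. Ucp1, the thermogenic uncoupling protein of brown adipocytes, was at 1586 to 2072 FPKM in flox/flox libraries and 287 to 495 FPKM in BKO libraries. Of 6 brown adipocyte markers, 3 were called lower, where 3.88% of all tested genes were, and the 6 summed to 4038 to 5052 FPKM in flox/flox and 1903 to 2700 FPKM in BKO libraries. Elovl3, a fatty acid elongase on that list, lay the other way, at 0.192 to 1.68 FPKM in flox/flox and 3.14 to 18.9 FPKM in BKO libraries (adjusted p = 0.0516 by limma). Mitochondrially encoded genes took 18.3 to 22.4% of the reads in flox/flox libraries and 11.0 to 12.2% in BKO libraries. Skeletal muscle markers stood far above the rest in flox/flox 2 and BKO 3, at summed levels of 884 and 1425 FPKM, against 31.6 to 46.9 FPKM in the other libraries.

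Of the 44 collagen genes, 26 averaged 0.5 FPKM or more with 10 reads or more and were tested in the fit over all 13507 genes that passed this filter. The remaining 18 ranged up to a mean of 0.398 FPKM, reached by Col4a4, a type IV chain of specialised basement membranes such as that of the kidney glomerulus. The lowest tested gene was Col7a1, the anchoring fibril collagen of skin, at a mean of 0.549 FPKM. Among the 18, 7 genes had no more than 10 reads over the 6 libraries, and Col2a1, the cartilage fibrillar collagen, averaged 0.00199 FPKM in flox/flox libraries and was at 0 in BKO libraries. Cartilage markers were low as well, with none of 7 passing the filter.

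The pair of type IV genes Col4a1 and Col4a2 had the highest levels. Col4a1 and Col4a2, whose products together form the common type IV network, ranked 1 and 2 among the members in both groups. The 5 highest members, Col4a1, Col4a2, Col3a1, Col1a1 and Col6a1, made up 70.8% of the summed collagen FPKM. The 3 highest, Col4a1, Col4a2 and Col3a1, kept their ranks in both groups. Col5a3 was at rank 8 in the flox/flox group and rank 4 in the BKO group, Col27a1 at ranks 11 and 8, Col20a1 at ranks 19 and 15 and Col14a1 at ranks 23 and 16. Col12a1 was at ranks 15 and 19, and Col11a2 at ranks 20 and 24. Neighbours further down the order, such as Col6a1 (26.7 ± 5.09 FPKM) and Col1a1 (26.1 ± 2.43 FPKM; SD, n = 3) in the flox/flox group, differed by less than their spread.

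**Figure D1:**
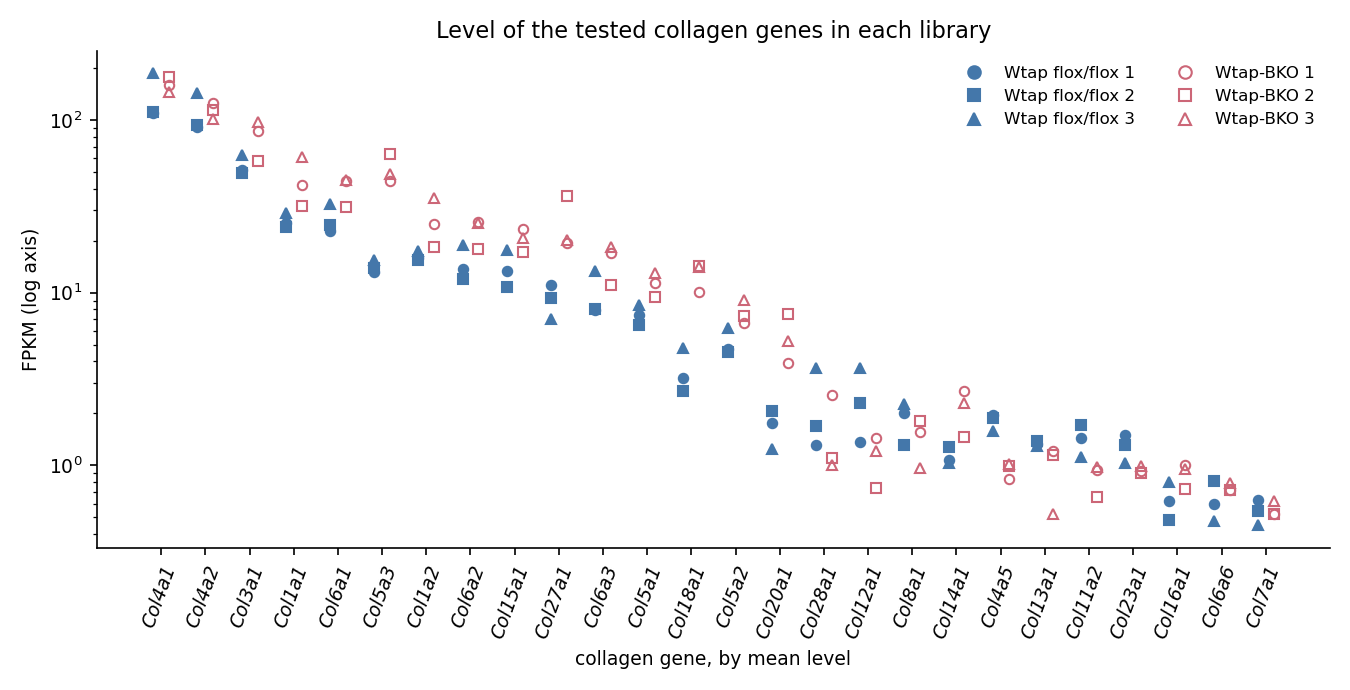
FPKM of each of the 26 tested collagen genes on a log axis, with 1 point per library, filled blue for Wtap flox/flox and open red for Wtap-BKO. Col4a1 and Col4a2 have the highest mean levels, and the groups are farthest apart at Col5a3, Col18a1, Col20a1 and Col27a1.

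The type IV pair is also tied together in the genome. Col4a1 and Col4a2 lie head to head on chromosome 8, with start sites 21 bases apart and 22 bases of overlap between the 2 genes, and the pair is known to be transcribed from a shared promoter. The window of the RefSeq table (build GRCm38.p6) around the start of Col4a1, chr8:11312777-11313076 on the minus strand, is printed because it holds the shared stretch. Capitals mark the 78 bases that also lie in the window of Col4a2.
Col4a1: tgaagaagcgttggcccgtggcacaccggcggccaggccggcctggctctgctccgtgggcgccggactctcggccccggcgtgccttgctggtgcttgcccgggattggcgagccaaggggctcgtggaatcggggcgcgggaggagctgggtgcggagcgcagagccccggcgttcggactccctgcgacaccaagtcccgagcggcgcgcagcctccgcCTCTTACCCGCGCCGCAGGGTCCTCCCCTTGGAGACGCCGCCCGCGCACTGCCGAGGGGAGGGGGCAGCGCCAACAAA

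Col5a3 had the highest fitted log2 change of the tested members, 1.86, just above Col18a1 at 1.84, and its window, chr9:20815018-20815317 on the minus strand of the same build, is printed beside it. Capitals mark matches to CCAAT and to the GC box GGGCGG, searched on both strands.
Col5a3: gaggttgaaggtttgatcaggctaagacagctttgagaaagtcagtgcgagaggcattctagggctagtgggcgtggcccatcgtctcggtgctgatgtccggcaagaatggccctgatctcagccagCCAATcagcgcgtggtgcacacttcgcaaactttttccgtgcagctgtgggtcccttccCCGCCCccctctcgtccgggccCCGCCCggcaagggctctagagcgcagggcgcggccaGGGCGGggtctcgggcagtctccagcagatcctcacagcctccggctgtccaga

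The Col5a3 window held 1 CCAAT match and 3 GC box matches, and no TATAAA. RefSeq windows of 300 bases, from 250 before to 50 after the start, were found for 35 of the 44 collagen genes, with 38 windows in all. The GC box was matched in 60.5% of the collagen windows and in 35.7% of all 32851 windows of the table. CCAAT was matched in 34.2% and 37.4%, and TATAAA in 13.2% and 13.6%, respectively. These matches describe letters in a window and no factor binding was measured here.

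The question put to the collagen genes was whether their transcripts differed between iBAT with and without Cre-directed deletion of Wtap. At an adjusted p under 0.05 over all genes, 4 of the 26 tested collagen genes (15.4%) were higher in the libraries labelled Wtap-BKO, against 6.10% of all tested genes. The 4 were Col5a3, Col18a1, Col20a1 and Col27a1. Only 1 of 26 (3.85%), Col4a5, was lower, against 3.88% of all tested genes. With library totals in place of the authors' scaling, the calls over all genes moved from 824 higher and 524 lower to 1114 higher and 310 lower, while the same 5 collagen genes were called.

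All 3 BKO libraries lay above all 3 flox/flox libraries in 9 of the 26 collagen genes (34.6%), where 18.2% of all tested genes did so. The opposite order was found in 4 collagen genes (15.4%), against 16.9% of all tested genes. Fitted log2 changes were above 0 in 19 collagen genes and below 0 in 7, with a median of 0.55, while over all tested genes 49.6% were above 0. Genes that share cells of origin do not vary independently, so these counts describe the members and are no test of the family.

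**Figure D2:**
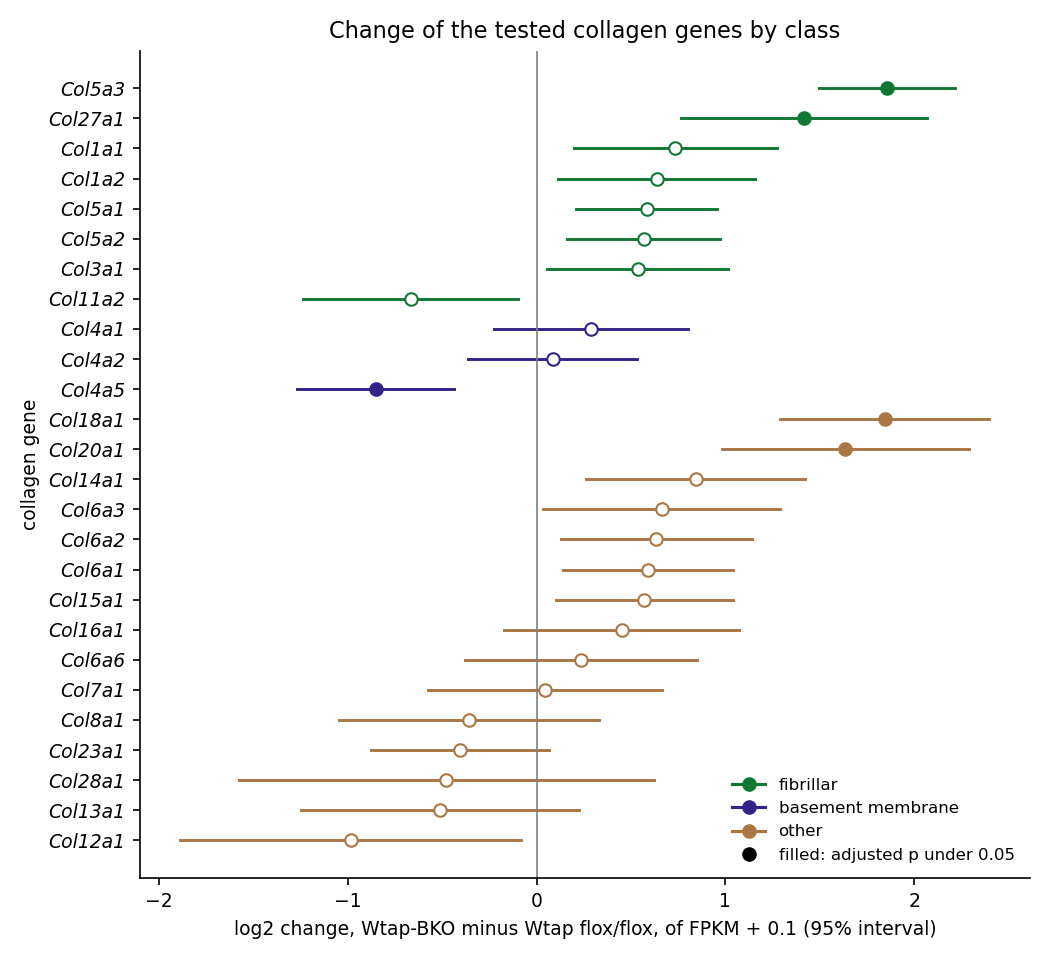
Fitted log2 change of FPKM + 0.1 (BKO minus flox/flox) for the 26 tested collagen genes, with 95% intervals from limma, grouped and coloured by class. Filled points have an adjusted p under 0.05; 4 lie to the right of 0 and 1, Col4a5, to the left.

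Among the fibrillar collagens, Col5a3 had the highest log2 change and passed the test. It encodes a chain of type V collagen and lies on chromosome 9 at 20770050 to 20815067 on the minus strand. Its level was 13.2, 13.8 and 15.5 FPKM in flox/flox 1 to 3, and 44.3, 63.5 and 48.4 FPKM in BKO 1 to 3. Every BKO library was well above every flox/flox library, with BKO 2 the highest. The mean went from 14.2 ± 1.22 to 52.1 ± 10.1 FPKM (SD, n = 3 each), a 3.68-fold difference, with a log2 change of 1.86 ± 0.15 (SE) and a limma adjusted p of 0.00371. The call held when any single library was left out, with adjusted p up to 0.0226.

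Col27a1 encodes a fibrillar collagen known from cartilage and bone growth, and lies on chromosome 4 at 63214004 to 63334991 on the plus strand. It was at 11.0, 9.30 and 7.04 FPKM in flox/flox 1 to 3 and at 19.3, 36.2 and 20.0 FPKM in BKO 1 to 3. The groups did not overlap, and BKO 2 stood above the other BKO libraries. The log2 change was 1.42 ± 0.28 (SE), with an adjusted p of 0.0258. Without flox/flox 1, 2 or 3, or without BKO 3, the adjusted p was 0.0547 to 0.0824 and the call was lost.

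The type I and III genes and the other type V genes did not pass the test. Col1a1 and Col3a1, which the study names as fibrosis genes, are chains of the most abundant fibril collagens. Col1a1 was at 25.4, 24.0 and 28.8 FPKM in flox/flox 1 to 3 and at 42.1, 31.8 and 60.8 FPKM in BKO 1 to 3, with no overlap. Its log2 change was 0.74 ± 0.23 (SE; adjusted p = 0.0864, 95% interval 0.20 to 1.27). Col3a1 was at 51.2, 49.5 and 62.6 FPKM in flox/flox 1 to 3 and at 85.9, 58.1 and 97.1 FPKM in BKO 1 to 3. BKO 2 fell within the flox/flox range for Col3a1, and its log2 change was 0.54 ± 0.20 (adjusted p = 0.138).

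Col1a2, the second chain of type I, was at 16.0, 15.5 and 17.3 FPKM against 24.9, 18.5 and 35.2 FPKM (log2 change 0.64 ± 0.22, adjusted p = 0.115). BKO 2 was the lowest BKO library here also, close to flox/flox 3. Col5a1, another type V chain, was at 7.42, 6.51 and 8.53 FPKM against 11.4, 9.46 and 13.0 FPKM (log2 change 0.58 ± 0.16, adjusted p = 0.0618). Col5a2, its usual partner, was at 4.70, 4.55 and 6.23 FPKM against 6.64, 7.32 and 9.07 FPKM (log2 change 0.57 ± 0.17, adjusted p = 0.0829). In both type V genes the groups did not overlap. Without BKO 2, Col1a1, Col1a2, Col3a1 and Col14a1 were called higher, with limma adjusted p between 0.0369 and 0.0441. None of these genes was called in any other alternative fit.

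Over the 8 tested fibrillar genes, 2 were called higher and none lower, where 6.10% and 3.88% of all tested genes were, and the median log2 change was 0.61. Col11a2, a chain of the cartilage collagen type XI, was the one fibrillar gene with a change below 0, at 1.42 ± 0.30 FPKM in flox/flox and 0.859 ± 0.18 FPKM in BKO libraries (SD, n = 3; adjusted p = 0.126). Col2a1, Col11a1 and Col24a1 were under the filter.

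The main type IV chains overlapped between the groups. Col4a1 was at 109, 111 and 186 FPKM in flox/flox 1 to 3 and at 159.7, 176 and 145 FPKM in BKO 1 to 3. Col4a2 was at 91.5, 93.1 and 142 FPKM in flox/flox 1 to 3 and at 125, 115 and 102 FPKM in BKO 1 to 3. For both chains flox/flox 3 was the highest library of all 6, with the BKO libraries between it and the other controls. The log2 change was 0.29 ± 0.22 for Col4a1 (95% interval −0.23 to 0.80, adjusted p = 0.430) and 0.09 ± 0.19 for Col4a2 (−0.36 to 0.53, adjusted p = 0.806), so an increase of the size seen for Col5a3 lay outside both intervals. Without flox/flox 3 the log2 change of Col4a1 was 0.54 (adjusted p = 0.0649), and without flox/flox 1 it was 0.15. Endothelial markers, 8 of 8 tested with none called, summed to 295 to 395 FPKM in flox/flox and 211 to 349 FPKM in BKO libraries, with flox/flox 3 the highest, and their part in the type IV levels was not tested.

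Col4a5 encodes a chain of another type IV network and lies on chromosome X at 141475385 to 141689234. It was at 1.95, 1.87 and 1.57 FPKM in flox/flox 1 to 3 and at 0.837, 0.991 and 1.02 FPKM in BKO 1 to 3. The groups did not overlap, and the log2 change was −0.85 ± 0.18 (adjusted p = 0.0298). The call was lost with any library left out, with adjusted p from 0.0573 to 0.110. Col4a3, Col4a4 and Col4a6 were not tested.

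In the other classes, Col18a1 and Col20a1 rose. Col18a1 encodes the core protein of a basement membrane proteoglycan, from whose end the fragment endostatin is released. It lies on chromosome 10 at 77052178 to 77166548 on the minus strand. It was at 3.19, 2.68 and 4.75 FPKM in flox/flox 1 to 3 and at 10.1, 14.2 and 14.0 FPKM in BKO 1 to 3. The lowest BKO library was above the highest flox/flox library, and the mean went from 3.54 ± 1.08 to 12.8 ± 2.31 FPKM, a 3.60-fold difference (log2 change 1.84 ± 0.23, adjusted p = 0.00849). The call held with any single library left out, with adjusted p up to 0.0406.

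Col18a1 overlaps Slc19a1, the folate transporter gene, by 8825 bases on the opposite strand, with 0 exonic bases shared in GENCODE M21. Slc19a1 was itself higher, from 8.01 ± 0.75 to 19.1 ± 2.95 FPKM (log2 change 1.23 ± 0.14, adjusted p = 0.00637). The strand setting of the counting was not found in the labels or methods, and the part of Slc19a1 reads in the Col18a1 value was not tested. Col15a1, the other multiplexin, was at 13.9 ± 3.39 FPKM in flox/flox and 20.5 ± 3.10 FPKM in BKO libraries, with a log2 change of 0.57 ± 0.20 (adjusted p = 0.113).

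Col20a1 is a FACIT collagen on chromosome 2 at 180986535 to 181018363. It was at 1.77, 2.08 and 1.24 FPKM in flox/flox 1 to 3 and at 3.93, 7.54 and 5.24 FPKM in BKO 1 to 3. The groups did not overlap, and BKO 2 was the highest library (log2 change 1.64 ± 0.28, adjusted p = 0.0183). The call was lost without flox/flox 1, flox/flox 3 or BKO 3, with adjusted p up to 0.0631. Col14a1, a FACIT collagen of tendon and skin fibrils, was at 1.07, 1.29 and 1.03 FPKM against 2.71, 1.47 and 2.29 FPKM (log2 change 0.84 ± 0.24, adjusted p = 0.0748).

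Col12a1, a relative of Col14a1, was at 1.36, 2.29 and 3.66 FPKM in flox/flox 1 to 3 and at 1.43, 0.745 and 1.21 FPKM in BKO 1 to 3. Its highest level was in flox/flox 3, the groups overlapped, and the log2 change of −0.98 ± 0.38 did not pass the test (adjusted p = 0.146). The log2 change of Col16a1 was 0.45 ± 0.26 (adjusted p = 0.305).

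The type VI chains, which encase adipocytes, had similar log2 changes of 0.59 to 0.66 in the 3 higher members. Col6a1 was at 22.8, 24.7 and 32.4 FPKM against 44.4, 31.4 and 45.1 FPKM (log2 change 0.59 ± 0.19, adjusted p = 0.0958). Col6a2 was at 13.6, 12.0 and 18.9 FPKM against 25.8, 17.8 and 25.3 FPKM (log2 change 0.63 ± 0.21, adjusted p = 0.106). Col6a3 was at 7.97, 8.00 and 13.3 FPKM against 16.9, 11.0 and 18.3 FPKM (log2 change 0.66 ± 0.27, adjusted p = 0.156). In all 3, BKO 2 lay below flox/flox 3, so that the groups overlapped. Col6a6 was at 0.628 ± 0.17 and 0.743 ± 0.04 FPKM, and none of the 4 tested type VI genes was called. For the transmembrane collagens Col13a1 and Col23a1, all 3 BKO libraries lay below all 3 flox/flox libraries, as in 16.9% of all tested genes. Neither passed the test (log2 change −0.51 ± 0.31 and −0.41 ± 0.20). The value of Col13a1 rested on BKO 3, its lowest library at 0.522 FPKM, and was −0.16 without that library. Col8a1, Col28a1 and Col7a1 also did not pass it.

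**Figure D3:**
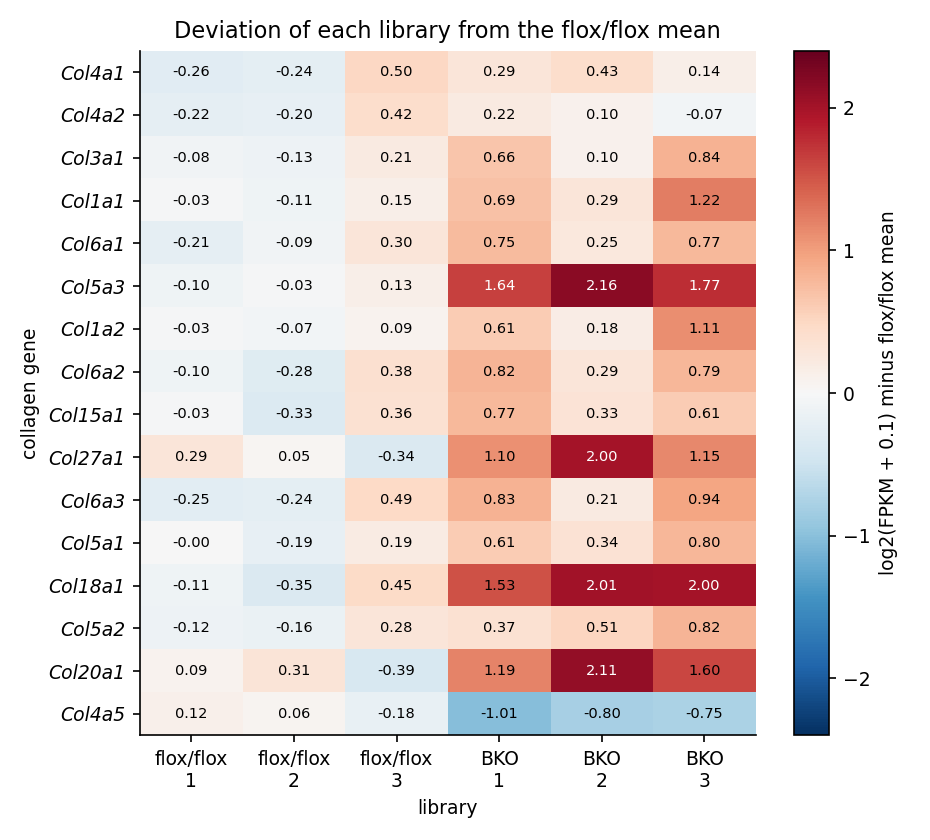
Deviation of log2(FPKM + 0.1) in each library from the flox/flox mean, for the 14 genes averaging 5 FPKM or more followed by the called genes Col20a1 and Col4a5. Col5a3, Col18a1, Col20a1 and Col27a1 are highest in BKO 2, the library in which Col3a1, Col1a1, Col1a2 and the type VI genes are lowest among the BKO libraries.

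The BKO libraries thus ordered the collagen genes in different ways. All 4 genes called higher were highest in BKO 2 and lowest in BKO 1 among the BKO libraries. For Col18a1, BKO 2 and BKO 3 were nearly level, at 14.2 and 14.0 FPKM. Of the 15 genes with a change above 0 that were not called, 11 were lowest in BKO 2. In the flox/flox group, 13 of the 14 genes averaging 5 FPKM or more were highest in flox/flox 3. These orders were not counted over all tested genes, so they cannot be called particular to collagen genes. Fibroblast markers, 10 of 10 tested with 2 called higher (Dpt and Clec3b), summed to 449 to 525 FPKM in flox/flox libraries and to 673, 664 and 1192 FPKM in BKO 1 to 3. Most of that sum was Gsn, the actin-binding protein gelsolin, at 343 to 405 FPKM in flox/flox libraries and 506, 511 and 964 FPKM in BKO 1 to 3, and Gsn was not called (adjusted p = 0.101). Macrophage markers, 8 of 8 tested with 3 called higher, summed to 158 to 237 and 240.0 to 363 FPKM. Both counts stand against 6.10% of all tested genes called higher. Pericyte and smooth muscle markers, 7 of 8 tested with none called, summed to 167 to 237 and 130.2 to 162 FPKM, and the part of these cells in the collagen levels was not tested.

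Leaving out flox/flox 2 and BKO 3, the libraries with skeletal muscle transcripts, left 2 against 2 libraries. In that fit limma called none of 13483 genes, with 2253 at an unadjusted p under 0.05, and none of the 26 collagen genes, of which 5 higher and 1 lower had an unadjusted p under 0.05. The log2 changes of Col5a3 and Col18a1 were then 1.88 and 1.59, and those of Col1a1 and Col3a1 were 0.44 and 0.32.

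Ratios of chains within a library do not depend on the scaling between libraries. Across 6 chain pairs, the log2 ratio of Col5a3 to Col5a1 was 0.82, 1.07 and 0.86 in flox/flox 1 to 3 and 1.95, 2.73 and 1.88 in BKO 1 to 3. It was higher in all 3 BKO libraries, by 1.27 on average. The exact two-sided permutation test gave p = 0.1, the smallest that 3 against 3 allows, and 0.3 after adjustment over the 6 pairs. No pair could pass 0.05 in this design.

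The difference was smaller for the type I pair. The log2 ratio of Col1a1 to Col1a2 was 0.67 ± 0.05 in flox/flox and 0.77 ± 0.02 in BKO libraries (SD, n = 3; exact p = 0.1, adjusted 0.3), a difference of 0.10 with no overlap. For Col4a1 to Col4a2 the ratio differed by 0.20 (exact p = 0.2, adjusted 0.4), for Col5a1 to Col5a2 by 0.02 (exact p = 0.9), for Col6a1 to Col6a2 by −0.04 (exact p = 1) and for Col6a3 to Col6a1 by 0.07 (exact p = 0.6). In these 4 pairs the groups overlapped.

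**Figure D4:**
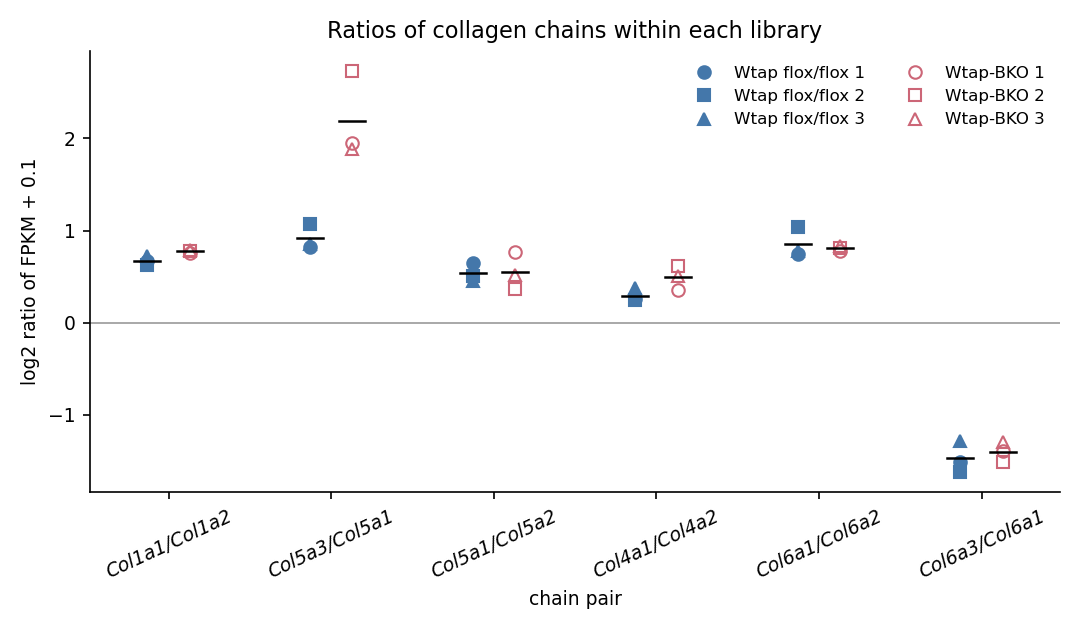
Log2 ratio of FPKM + 0.1 of 6 collagen chain pairs in each library, filled blue for Wtap flox/flox and open red for Wtap-BKO, with black bars at the group means. The Col5a3 to Col5a1 ratio lies at 0.82 to 1.07 in flox/flox and at 1.88 to 2.73 in BKO libraries, while 4 of the other pairs overlap.

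Summed by class, the collagen transcripts differed in make-up between the groups. Fibrillar collagen summed to 130.4, 125 and 147 FPKM in flox/flox 1 to 3 and to 235, 226 and 285 FPKM in BKO 1 to 3. Basement membrane collagen summed to 203, 206 and 330.3 FPKM and to 286, 293 and 248 FPKM. The fibrillar sums did not overlap between the groups, whereas the basement membrane sums did. The fibrillar share of the collagen FPKM was 25.3 to 32.0% in flox/flox and 35.7 to 42.4% in BKO libraries, and that of type IV was 49.8 to 56.9% and 37.0 to 46.7%. Without Col5a3, the fibrillar share of the remaining collagen FPKM was 23.3 to 29.7% in flox/flox and 28.8 to 37.9% in BKO libraries, and that of type IV was 51.5 to 58.4% and 39.8 to 51.9%, so that both overlapped. The summed fibrillar FPKM without Col5a3, 111 to 132 and 162 to 236, still did not overlap. Col5a3 alone went from 3.11 ± 0.39% to 8.02 ± 1.84% of the collagen FPKM (SD, n = 3).

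As a share of all reads, collagen genes took 0.302, 0.308 and 0.439% in flox/flox 1 to 3 and 0.581, 0.466 and 0.546% in BKO 1 to 3. Every BKO library was above flox/flox 3, the highest control. Outside mitochondrially encoded genes, whose share of reads was lower in BKO libraries, the collagen shares were 0.371 to 0.565% and 0.524 to 0.661%, and the groups overlapped. These sums are a description, since few genes carry them.

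**Figure D5:**
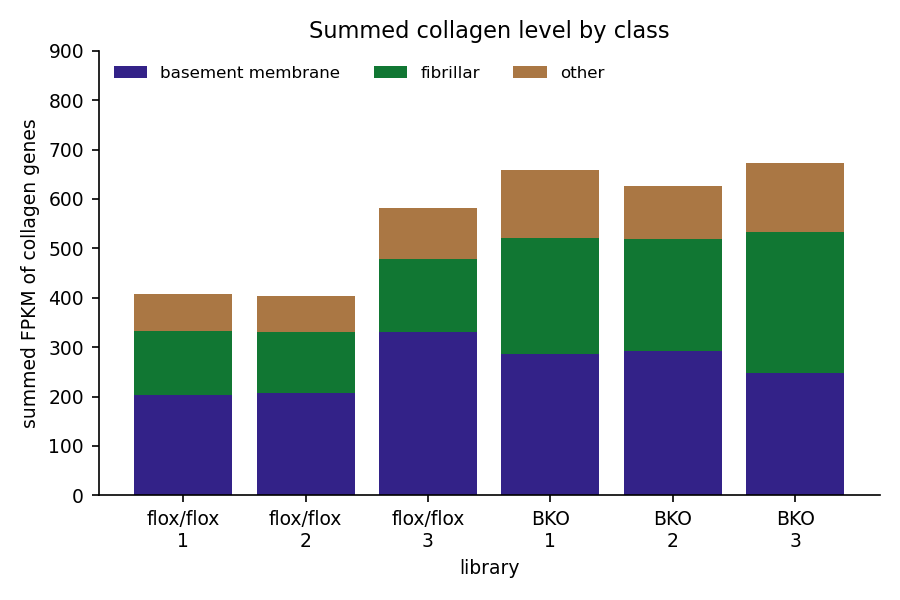
Summed FPKM of the collagen genes in each library, stacked by class from 0. The whole bar is 403 to 581 FPKM in flox/flox and 627 to 672 FPKM in BKO libraries, and the fibrillar segment is larger in every BKO library.

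Genes that make, process or remove collagen were counted from lists chosen by function. Each count below stands against 6.10% of all tested genes called higher. Of 17 tested genes for modification and folding, 1 was called higher, a share close to that background: Colgalt1, a collagen galactosyltransferase, from 12.7 ± 0.46 to 17.8 ± 0.37 FPKM (SD, n = 3; adjusted p = 0.0214). Serpinh1, the collagen chaperone HSP47, was at 151 and 214 FPKM without passing the test (adjusted p = 0.0656). Of 4 tested procollagen processing genes, 1 was called higher: Pcolce2, an enhancer of procollagen C-proteinase, from 1.17 ± 0.21 to 4.08 ± 0.42 FPKM (log2 change 1.73 ± 0.17, adjusted p = 0.00486). The Pcolce2 call held with any single library left out, with adjusted p up to 0.0279.

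Of 4 tested crosslinking genes, 1 was called higher (against 6.10% of all tested genes): Loxl1, a lysyl oxidase-like enzyme, from 5.56 ± 0.64 to 10.1 ± 1.87 FPKM (adjusted p = 0.0274). Lox itself was at 5.73 and 6.11 FPKM (adjusted p = 0.809). Of 8 tested genes for collagen degradation and its inhibitors, 1 was called higher (against the same 6.10%): Mmp2, a gelatinase, from 12.5 ± 0.38 to 18.8 ± 2.36 FPKM (adjusted p = 0.0274). Without 1 library the adjusted p of Colgalt1, Loxl1 and Mmp2 reached 0.0849, 0.0937 and 0.0950. None of the 7 tested receptor and uptake genes was called. No gene of these lists was called lower, where 3.88% of all tested genes were.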

How the data were processed

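Total RNA of iBAT from 3 libraries labelled Wtap flox/flox and 3 labelled Wtap-BKO was compared. The authors aligned reads to GRCm38.p6 with HISAT2 2.0.5, counted them with featureCounts 1.5.0-p3 and compared groups with DESeq2 1.16.1. The deposited values are FPKM for 55703 genes, already scaled between libraries by the authors. In these values 100% of nonzero entries were whole reads within 0.01, giving 15979694 to 19005123 reads per library.

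Values were analysed as log2(FPKM + 0.1) with limma 3.58.1 in R 4.3.3, with the group as the only term and a variance trend, for genes averaging 0.5 FPKM or more and 10 reads or more. A fold change on this scale understates the change of low genes. P-values are two-sided, adjusted by Benjamini-Hochberg over all tested genes, and called under 0.05. Ratios were compared by exact permutation tests. The fit was also run on simulated counts with the same spread in both groups. That run does not test the fit at the unequal spread of these libraries. Limma p-values set the difference between groups against the spread between these libraries, with the variance of each gene moderated over all genes. Permutation p-values compare the difference with that of the other ways to split the libraries.

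The members and lists were chosen with earlier results of these data known. Named genes were the called members, Col1a1, Col3a1, the partner chains of the ratios, the 5 highest members, and up to 4 called genes of each pathway list; other members are given by level and count, and Col11a2, Col12a1, Col14a1, Col15a1, Col16a1, Col6a6, Col13a1, Col23a1, Serpinh1 and Lox were added after their values were seen. Alternatives were other scalings, filters, pseudocounts, voom, robust variance moderation, a fit of protein-coding genes, a replicate block and leaving out libraries. Sequences are from RefSeq.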

Additional observations from a re-analysis of the deposited data

How the results depend on the processing

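The same 5 collagen genes were called with library totals, size factors without mitochondrial genes, a mean of at least 1 FPKM, pseudocounts of 1 and 0.01, voom on recovered reads, a robust variance and protein-coding genes only. With library totals, 310 genes were lower. With no filter, 442 genes were higher and 245 lower, 0 collagen genes were called lower, and the median collagen log2 change over all 44 was 0.21; Col27a1 and Col4a5 lost their calls. Without flox/flox 2 and BKO 3, limma called 0 genes higher and 0 lower, and 0 collagen genes higher and 0 lower. Leaving out each library in turn gave 219 to 849 genes higher and 88 to 428 lower, 2 to 8 collagen genes higher and 0 to 0 lower. The Col4a2 log2 change was −0.025 without flox/flox 1 and −0.012 without flox/flox 2, and ran to 0.29. The Col5a1 to Col5a2 ratio difference ran from −0.092 (without BKO 1) through −0.028 (without flox/flox 3) to 0.11, that of Col6a1 to Col6a2 from −0.10 to 0.052 (without flox/flox 2), and that of Col6a3 to Col6a1 from −0.0039 (without flox/flox 2) to 0.16. The cause of these changes was not tested.

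With the replicate number as a block, 211 genes were higher and 97 lower, 0 collagen genes were called lower, and Col27a1 (adjusted p = 0.0594 by limma) and Col4a5 (adjusted p = 0.103) lost their calls. Deviations of libraries with the same number correlated at −0.054, −0.396 and −0.27. Since each deviation is from a mean of 3 libraries, these values cannot decide whether the numbers pair the samples. With 3 libraries a group, changes under the spread between libraries were not detectable.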

Other observations

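Near the called collagen genes, 9230112E08Rik, a lncRNA that overlaps Col20a1 by 741 bases on the same strand with 0 exonic bases shared, was also higher, from 2.26 ± 0.36 to 4.56 ± 0.82 FPKM (SD, n = 3; adjusted p = 0.0245 by limma). Mir455, a microRNA gene inside Col27a1, was listed at 0 in all 6 libraries. S100b, listed among the Schwann cell markers, was lower, from 33.9 ± 1.80 to 11.9 ± 4.68 FPKM (adjusted p = 0.0202). Epithelial markers, 0 of 6 of which passed the filter, included 2 genes at 0 in all libraries.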
